A study of Caenorhabditis elegans with 2 samples.

Results

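The genes described here build the eggshell of the nematode Caenorhabditis elegans or act as maternal factors in its oocytes. They are cpg-1, cpg-2, cbd-1, egg-1, egg-2, egg-3, chs-1, pos-1, mex-1 and oma-1, 10 of the 19985 protein-coding genes in the annotation, and all 10 names were found there. They were selected on the deposited peaks of this same experiment, because several of them carried a peak close to the start of the gene. Their peak ranks and reproducibility values are therefore given as a description, without a test, and support nothing by themselves.

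The experiment was chromatin immunoprecipitation followed by sequencing (ChIP-seq), which lists the regions of the genome recovered with a chosen protein. The protein was Y53F4B.3, the product of pole-4 in the annotation, whose namesake is a histone-fold protein of the polymerase epsilon complex that copies DNA. All worms were of strain RW12270, in which CRISPR editing had placed TY1, EGFP and 3xFLAG tags on the gene at its own locus on chromosome II, and an antibody against GFP was used for the precipitation. The single group consisted of whole young adults aged 64 h, synchronised by starving newly hatched larvae after bleaching, in 2 biological replicates. Untagged worms were not analysed here, and a peak is a recovered region, with binding itself not tested. Whole worms were used, so the share of cells with a region recovered and the amount recovered per cell cannot be told apart, and no peak is assigned to a tissue.

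The C. elegans eggshell is assembled around the oocyte at fertilisation from a vitelline layer, a chitin layer and a layer of chondroitin proteoglycans. Its components, and the proteins of the oocyte surface that coordinate their secretion, are made in the germ line before fertilisation. CCCH zinc finger proteins such as those of pos-1, mex-1 and oma-1 bind maternal messenger RNAs and control when they are translated, in the maturing oocyte and the early embryo.

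A short sequence is shown first because it recurs in several of the promoters. The letters TTCCCGC, or GCGGGAA on the other strand, form the core of the sequence that E2F transcription factors recognise. They lay within 150 bases of the promoter summit, the position of highest signal in a peak, in 5 of the 7 genes described by sequence that had such a summit in the larger of the authors' combined lists. The 5 stretches follow, each read 5′ to 3′ on the strand of its gene in build WBcel235, which is ce11, with the 7 letters in capitals and 30 bases on either side.
cpg-1, chrIII:4489146-4489212, plus strand: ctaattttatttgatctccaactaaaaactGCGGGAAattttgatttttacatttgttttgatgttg
cbd-1, chrIV:11372785-11372851, plus strand: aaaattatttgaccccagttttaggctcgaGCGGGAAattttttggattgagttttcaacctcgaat
egg-1, chrIII:5728035-5728101, plus strand: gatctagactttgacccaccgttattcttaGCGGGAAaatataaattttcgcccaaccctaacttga
egg-2, chrIII:7060671-7060737, minus strand: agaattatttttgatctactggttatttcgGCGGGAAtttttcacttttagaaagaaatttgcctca
mex-1, chrII:11968423-11968489, plus strand: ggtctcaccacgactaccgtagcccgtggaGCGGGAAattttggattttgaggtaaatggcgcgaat

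All 5 copies read GCGGGAA in the direction of transcription, and each gene had 1 copy. Their first bases lay 183 bp (cpg-1), 176 bp (cbd-1), 115 bp (egg-1), 124 bp (egg-2) and 184 bp (mex-1) upstream of the annotated start. The remaining promoter summits, those of pos-1 and oma-1, are shown with 60 bases on either side. Neither these windows nor the 500 bases before the starts of pos-1, oma-1, egg-3 and chs-1 held the letters.
pos-1, chrV:8413783-8413903, plus strand: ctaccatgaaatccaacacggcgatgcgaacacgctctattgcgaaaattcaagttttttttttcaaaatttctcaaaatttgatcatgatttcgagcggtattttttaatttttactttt
oma-1, chrIV:8888626-8888746, plus strand: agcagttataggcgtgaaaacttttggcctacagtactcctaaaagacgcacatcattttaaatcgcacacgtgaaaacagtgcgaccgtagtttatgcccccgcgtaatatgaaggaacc

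The terms used for the peaks are these. A candidate is a region in one of the authors' ranked lists, a listed peak is a candidate that is also in their thresholded list, and every listed peak had an irreproducible discovery rate (IDR, the estimated share of irreproducible peaks among those ranked at least as high) of at most 0.01. There were 9477 candidates and 465 listed peaks in a larger set that draws on both replicates, 12529 and 437 in a conservative set that also draws on both, 18181 and 287 in replicate 1, and 27101 and 248 in replicate 2. The combined sets are not further replicates. The signal of a peak is the authors' own value and has no scale shared between all lists, so peaks are compared by their rank, or by percentile, within a list, where a higher percentile means a stronger signal. Read depth is unknown, because the lists carry no counts. A gene was given every summit within 2000 bp of one of its annotated transcription start sites (TSS), and distances are negative upstream. Many worm messenger RNAs are trans-spliced, so an annotated start may be the splice site rather than the place where transcription begins.

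Of the 10 genes, 5 had a listed summit in the larger set, namely cpg-1, cbd-1, egg-1, pos-1 and mex-1, and the same 5 had one in the conservative set. Replicate 1 alone listed cpg-1 and mex-1, and replicate 2 alone listed cpg-1 and pos-1, so cpg-1 was the gene listed in both. Among all protein-coding genes with a candidate, the share with a listed summit was 8.07% (larger set), 6.72% (conservative set), 3.31% (replicate 1) and 1.85% (replicate 2). Because the genes were selected on these lists, nothing is read from the difference.

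A candidate of any strength was present at 8 of the 10 genes in the larger set, at 9 in the conservative one and at all 10 in each replicate. The shares of all protein-coding genes with a candidate were 33%, 40.5%, 56.4% and 70.5% in the same order. The strongest candidate of the 8 genes in the larger set had a median signal percentile of 93.8, with a range of 20.9 to 97.9, against a median of 62.1 over all 6593 genes with a candidate. In replicate 1 the median was 95.2 against 63.3 for all genes, and in replicate 2 it was 97.3 against 65.0. The genes were spread unevenly around these medians, with 7 of them at or above the 90th percentile in replicate 1 and 8 in replicate 2. Of all genes with a candidate, 16.3% and 17.6% reached that percentile in the same replicates. Below the median of all genes were egg-2 and chs-1 in replicate 1 and egg-2 and egg-3 in replicate 2. The genes described here also had more candidates each, with a median of 4 against 1 over all genes with a candidate in the larger set. In replicate 1 the median number was 3.5 against 1, and in replicate 2 it was 3.5 against 2. A gene with more candidates has more from which its strongest is taken. The percentiles are therefore not compared at equal numbers of candidates, and the effect of this was not tested.

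**Figure D1:**
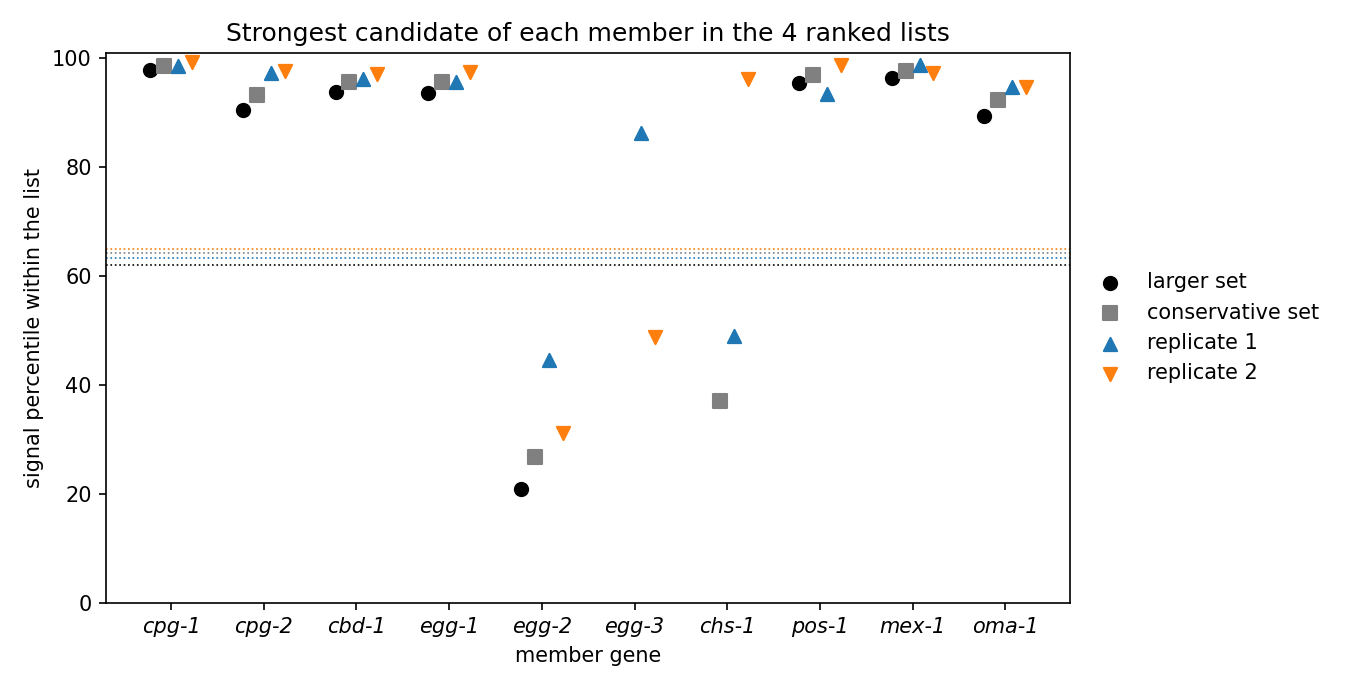
Signal percentile within its list (vertical axis, 100 strongest) of the strongest candidate of each gene in the larger and conservative sets and in each replicate; dotted lines mark the median over all genes with a candidate in each list. The points of cpg-1, cpg-2, cbd-1, egg-1, pos-1, mex-1 and oma-1 lie between 89.3 and 99.3 in every list, and those of egg-2 between 20.9 and 44.5. The mex-1 points are a summit nearer to the start of W03C9.5, 899 bp upstream of mex-1 in the larger set. The cpg-2 points in the replicates lie around the 3' end of that gene.

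The chondroitin proteoglycan genes cpg-1 and cpg-2 encode chitin-binding proteins of the eggshell's proteoglycan layer. The promoter peak of cpg-1 (WBGene00000465, chrIII:4489359-4491392, plus strand) had the lowest IDR of all peaks at these genes in every list but replicate 1, where the farther mex-1 summit was lower. Its summit lay 225 bp upstream of the TSS. The signal in the larger set was 137.6, where the peak ranked 203 of 9477 candidates and 98 of the 465 listed peaks. In replicate 1 it ranked 245 of 18181 with an IDR of 0.00138, and in replicate 2 it ranked 200 of 27101 with an IDR of 8.5e-05. The IDR was 3.3e-05 in the larger set and 0.00024 in the conservative one, so the peak passed in every list. No other annotated gene lay within 2000 bp of its summit. The whole 260-base peak is shown because it was the only promoter peak of the 10 genes listed in both replicates, with the 7 letters in capitals.
cpg-1, chrIII:4489004-4489263, plus strand: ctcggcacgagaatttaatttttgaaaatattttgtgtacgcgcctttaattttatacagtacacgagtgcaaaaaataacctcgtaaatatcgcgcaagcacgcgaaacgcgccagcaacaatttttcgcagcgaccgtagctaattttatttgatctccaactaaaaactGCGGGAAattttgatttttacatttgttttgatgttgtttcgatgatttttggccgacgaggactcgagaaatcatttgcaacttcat

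A second peak at cpg-1 was listed near the 3' end of the gene. Its summit lay in a coding exon 1801 bp downstream of the TSS, with a signal of 52.4, a rank of 2182 among candidates and 451 among the 465 listed peaks, and an IDR of 0.00622. The same interval had an IDR of 0.841 in the conservative set and was not listed there. In replicate 1 the nearest candidate ranked 18092 of 18181, whereas in replicate 2 a listed peak with rank 667 had its summit in the 3' UTR, 1916 bp downstream of the TSS. The region was thus listed in replicate 2 and ranked near the bottom in replicate 1. The transcription factor gene atf-7, on the opposite strand, ends 463 bp beyond the larger-set summit. Coding exons held 1.51% of all listed peaks of the larger set.

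The promoter candidate of cpg-2 (WBGene00015102, chrIII:7102092-7103990, minus strand) lay 234 bp upstream of the TSS and was not listed in any of the 4 lists. Its signal was 69.9, rank 891 in the larger set, and it ranked 1156 in replicate 1 and 831 in replicate 2. Its IDR was 0.623 in the larger and 0.0139 in the conservative set, and the replicates gave 0.577 and 0.319. The same interval and signal thus received very different IDRs in the combined sets, and in the conservative set it missed the limit narrowly. In each replicate the strongest candidate of cpg-2 lay 1917 and 1663 bp downstream of the start, around the 3' end of the gene, at percentiles of 97.4 and 97.8. The closest other gene to the promoter summit was the pseudogene WBGene00023224, 1217 bp away.

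The gene cbd-1 (WBGene00010351, chrIV:11372991-11377627, plus strand) encodes a chitin-binding protein of the outer, vitelline layer. Its promoter summit was found 201 bp upstream, and in the larger set its signal of 83.1 ranked 578 among candidates and 387 among listed peaks. The combined sets gave it IDRs of 0.00638 (larger) and 0.00636 (conservative), and in the larger set it was the listed promoter peak closest to the limit. Replicate 1 ranked it 680 with an IDR of 0.0760 and replicate 2 ranked it 776 with an IDR of 0.612. It was therefore listed only where both replicates entered. The secretory coat gene sec-31 starts 998 bp from the summit on the opposite strand.

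The paralogs egg-1 and egg-2 encode transmembrane proteins of the oocyte surface with LDL receptor repeats, needed for fertilisation. They differed clearly in rank although both promoters hold GCGGGAA. The promoter summit of egg-1 (WBGene00015083, chrIII:5728180-5730159, plus strand) lay 205 bp upstream of the TSS, and in the larger set its signal was 81.8, its rank 594 and its IDR 0.00313. It ranked 798 in replicate 1 and 661 in replicate 2, with IDRs of 0.0810 and 0.0856, and was listed in neither. The nearest neighbour was the beta-catenin gene wrm-1, whose 3' end lies 860 bp from the summit.

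The promoter candidate of egg-2 (WBGene00019811, chrIII:7058527-7060583, minus strand) lay 93 bp upstream of the TSS. It had a signal of 33.8, a rank of 7495 of 9477 and an IDR of 0.833. Its ranks were 10085 of 18181 in replicate 1 and 18675 of 27101 in replicate 2. At percentiles of 44.5 and 31.1 it was below the median of all genes in both replicates, and its replicate summits lay 110 bp apart, the widest gap at any of the 8 promoter loci. The gene R01H2.4 ends 347 bp from the summit. Of the 24-mers within 130 bp of either egg-1 or egg-2 summit, 0% occurred elsewhere in the genome, so the windows of these paralogs are distinct in sequence.

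The last eggshell genes, egg-3 and chs-1, had no candidate in the larger set. The egg-3 protein (WBGene00009701, chrII:10882408-10884441, minus strand) resembles a tyrosine phosphatase and anchors other eggshell factors at the oocyte cortex, and chs-1 (WBGene00000496) encodes the chitin synthase that makes the chitin layer. In replicate 2, a promoter candidate of egg-3 lay 37 bp upstream of the TSS at rank 13883, and one of chs-1 lay 111 bp upstream at rank 9313, with IDRs of 0.907 and 0.815. Neither was near the limit, and replicate 1 had no promoter candidate at either gene. The strongest candidate of egg-3 in replicate 1 ranked 2503, in a coding exon 1764 bp downstream of the TSS, towards the 3' end of the gene. That of chs-1 in replicate 2 ranked 1043, in an intron 433 bp downstream, with an IDR of 0.0762.

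**Figure D2:**
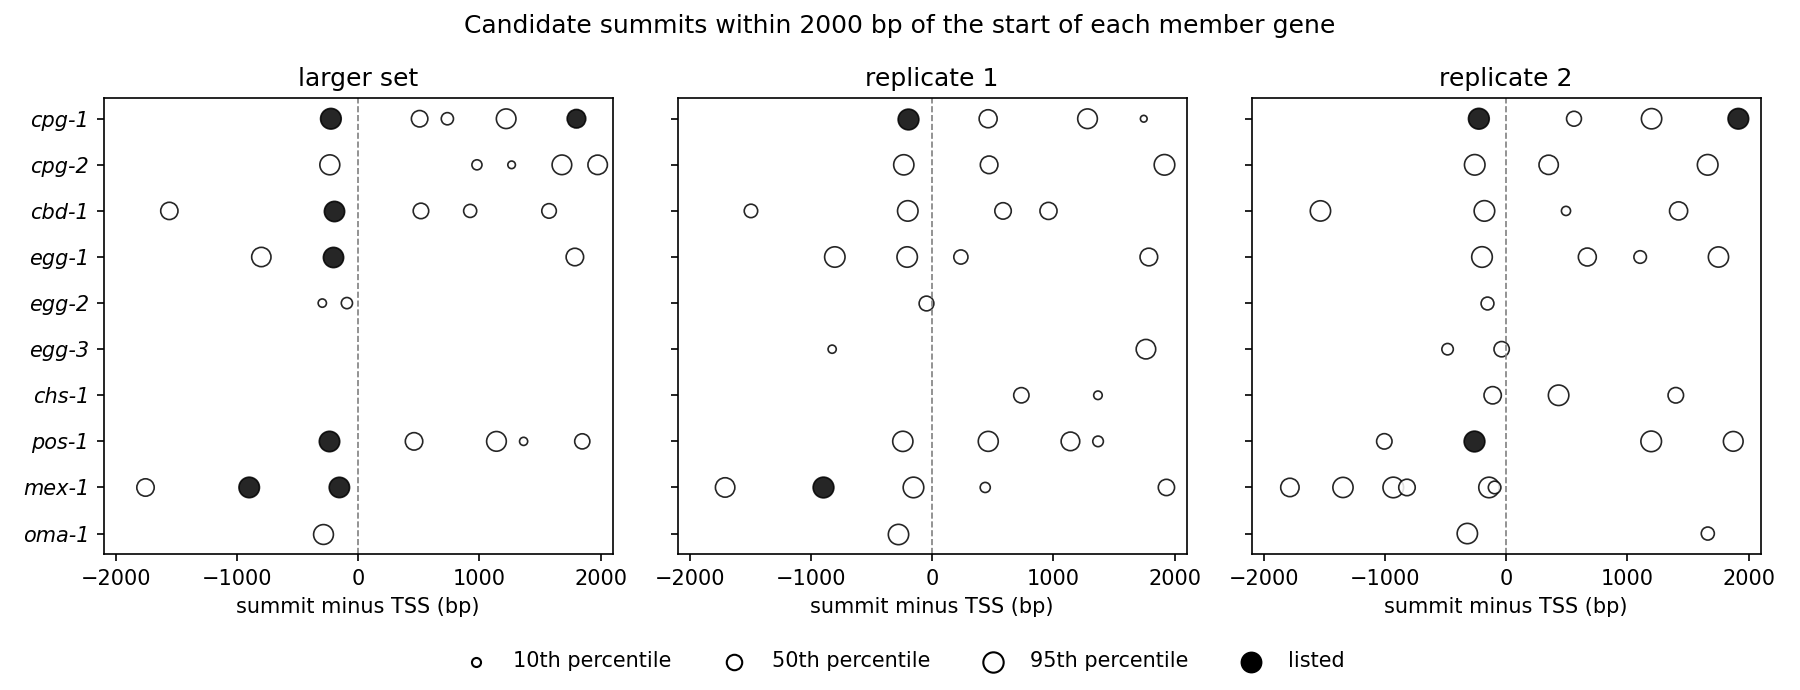
Position of every candidate summit within 2000 bp of the start of each gene (horizontal axis, bp, negative upstream), in the larger set and in each replicate; larger circles have a higher signal percentile and filled circles are listed. In the larger set 8 genes have a summit between 93 and 290 bp upstream, and the listed summits outside that band are those of cpg-1 at 1801 bp downstream and mex-1 at 899 bp upstream.

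Among the maternal RNA-binding factors, pos-1 (WBGene00004078, chrV:8414086-8415254, plus strand), which specifies posterior fates in the embryo, had a promoter summit 243 bp upstream of the TSS. Its signal was 93.7 and its rank 431 in the larger set, with an IDR of 0.00212 there and 0.00785 in the conservative set. Replicate 2 listed it at rank 347 with an IDR of 0.00391, while replicate 1 ranked it 1187 with an IDR of 0.518. The replicates thus differed more in percentile at pos-1, 93.5 against 98.7, than at any other listed promoter of the group. The summit also lay 361 bp upstream of vha-18, a vacuolar ATPase subunit gene that starts on the opposite strand, so the peak falls in the promoter class of both genes. A further neighbour, lmd-3, ends 1805 bp away. Of the 24-mers within 130 bp of the summit, 11.8% occurred 5 or more times in the genome; at the other 6 promoter summits described by sequence this share was 0%.

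The gene mex-1 (WBGene00003228, chrII:11968637-11972330, plus strand), needed to keep germline fate in the right early blastomeres, had 2 listed summits upstream. The nearer one lay 155 bp from the TSS with a signal of 89.0, rank 493 and an IDR of 0.00219 in the larger set. It was listed in neither replicate, although in replicate 1, at rank 459, its IDR of 0.0109 was just above the limit, and in replicate 2 it ranked 856 with an IDR of 0.364. The farther one was stronger, with a signal of 106.9, rank 337 and an IDR of 0.00107, and replicate 1 listed it at rank 209 while replicate 2 ranked it 706 with an IDR of 0.621. It lay 899 bp upstream of mex-1 but 194 bp upstream of W03C9.5, which starts on the opposite strand, and 807 bp from the start of the small GTPase gene rab-7. By the nearest start it belongs to W03C9.5, so the call of mex-1 in replicate 1 rests on a summit nearer to another gene. The sequence around this farther summit is shown for contrast with the promoter windows above, since it does not hold GCGGGAA or TTCCCGC. Its GC content within 150 bases was 41.9%, against 35.2% at the nearer summit.
mex-1, chrII:11967678-11967798, plus strand: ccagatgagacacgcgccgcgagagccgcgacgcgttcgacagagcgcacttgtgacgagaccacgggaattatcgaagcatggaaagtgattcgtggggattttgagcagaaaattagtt

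The gene oma-1 (WBGene00003864, chrIV:8888976-8890999, plus strand), required for oocyte maturation, had a promoter candidate 290 bp upstream of the TSS that no list passed. With a signal of 66.9 it ranked 1010 in the larger set, and the replicates ranked it 951 and 1398. Its IDR was 0.0595 in the larger and 0.0200 in the conservative set, and the replicates gave 0.196 and 0.616. Among the promoter candidates that were not listed in the larger set it had the lowest IDR, still well above the limit of 0.01. The replicates placed it at nearly the same percentile, 94.8 in each. The gene C09G9.5 ends 119 bp upstream of the summit.

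**Figure D3:**
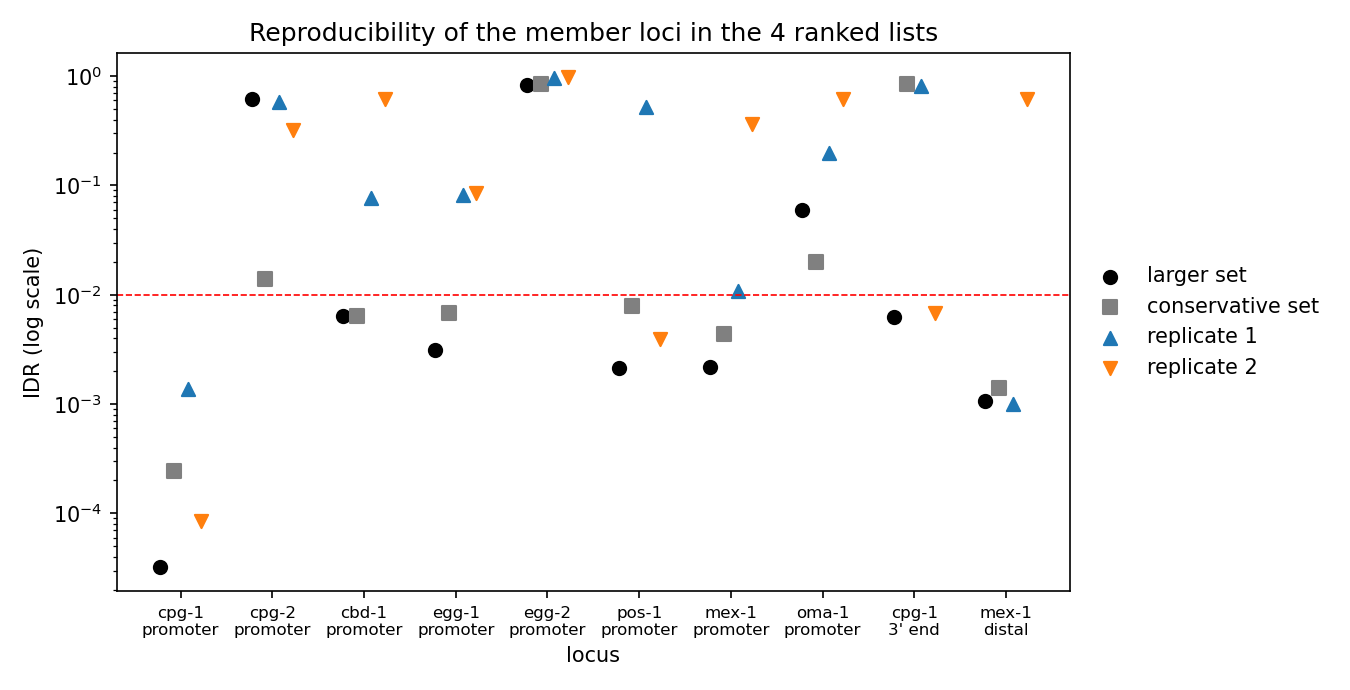
IDR (vertical axis, log scale, lower is more reproducible) of each promoter locus, and of the further listed peaks of cpg-1 and mex-1, in the 4 ranked lists; the dashed line is the limit of 0.01. The cpg-1 promoter is below the line in all 4 lists, while the promoters of cbd-1, egg-1 and mex-1 are below it in the combined sets and above it in each replicate.

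Promoter summits were by definition those within 500 bp upstream of the start, which limits their distances in advance. For the 5 listed genes the strongest summit within that limit was 155 to 243 bp upstream, with a median of 205 bp upstream (-205). For all 8 genes it was 93 to 290 bp upstream (median -215). The strongest listed summit was also taken for each of the 185 protein-coding genes with one within 500 bp upstream. Its median was -251, with quartiles of -349 and -154, and 42 of these genes (22.7%) fell between the listed genes' limits. Other listed promoters thus also have summits at these distances. Over the strongest candidates, listed or not, of the 1775 genes with one within 500 bp upstream, the median was -234. The quartiles were -347 and -125. Between the replicates, the summits of a promoter locus differed by 7 to 110 bp, with a median of 23.5 bp. Each replicate's summit was the one nearest to the larger-set summit and within 130 bp of it, which limits these gaps in advance. Of the 29 summits assigned to the 10 genes in the larger set, 11 were in promoters, 13 in coding exons, 3 in 3' UTRs and 2 intergenic, and of the 7 listed ones 6 were in promoters. Over the whole larger set, promoters held 21.4% of candidates and 33.8% of listed peaks, and coding exons held 21.5% of candidates.

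The promoter windows were rich in A and T. Within 150 bases of the summit the GC content ran from 28.2% at cbd-1 to 38.2% at cpg-1 over the 7 promoter loci described by sequence. All were below the median of all candidates of the larger set, 38.9%, and of all listed peaks, 39.9%. Both medians cover summits of every position class, and none was computed for promoter windows alone. None of the summits in the larger set had a tRNA, snoRNA, snRNA or spliced leader RNA gene within 500 bp. A repeat share of 0% was found at 6 of these 7 promoter summits, as at 76.0% of all candidates and 44.3% of all listed peaks.

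The letters TTCCCGC, searched on both strands, occurred in 5 of the 7 promoter summit windows of 150 bases either side, as shown at the start, and in 4 of the 5 that were listed. The same letters were in 4.17% of all 9477 candidate windows and 6.45% of the 465 listed ones. In promoters of 250 bases before to 50 after the start they were in 5 of 9 genes and in 643 of 19985 protein-coding genes (3.22%). Of those 643 promoters, 233 (36.2%) carried GCGGGAA on the strand of the gene, as all 5 of these did. The copies lay from 28 bp upstream of the summit at egg-2 to 93 bp downstream at egg-1. Of the 5 genes with the letters, cpg-1, cbd-1, egg-1 and mex-1 were listed in the larger set, and egg-2, with a low rank, was not. Among the genes found without them, pos-1 was listed and oma-1 was not, while egg-3 and chs-1 had no candidate there. Whether the letters go with the signal was not tested.

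**Figure D4:**
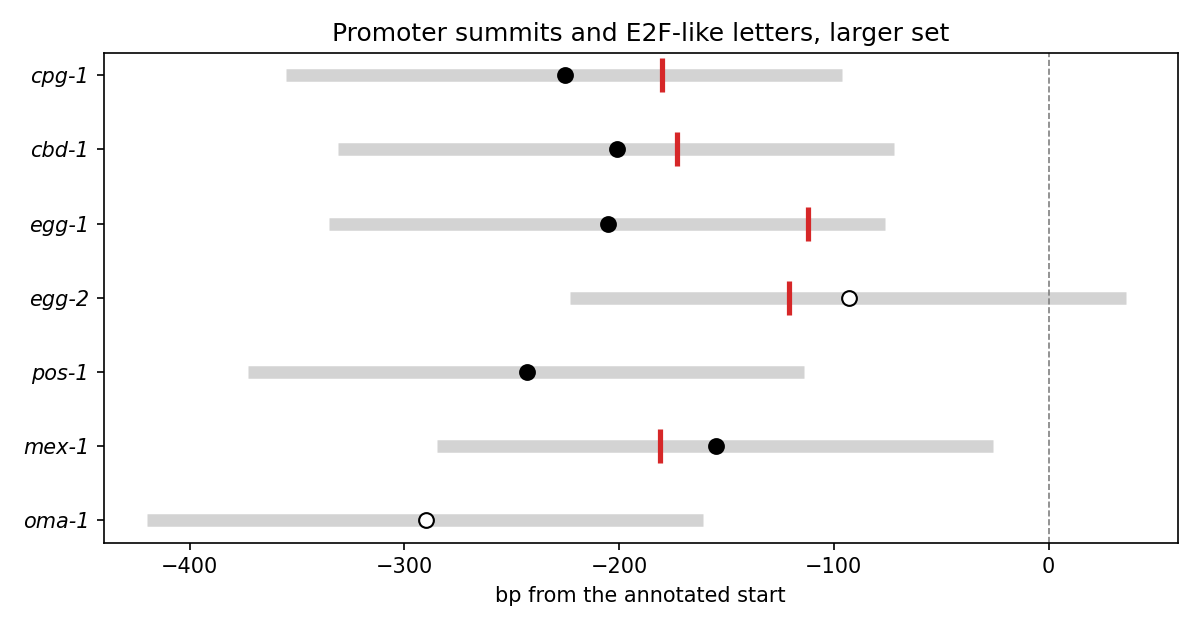
Promoter summit of 7 genes in the larger set (circle, filled where listed), 130 bp on either side of it (grey bar) and the E2F-like letters (red mark), by distance from the annotated start (horizontal axis, bp). Each mark is drawn at the middle of the letters, whose first bases lie between 115 and 184 bp upstream, and pos-1 and oma-1 have none.

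Across the genome, genes with these letters in the promoter had listed summits somewhat more often. In the larger set 36 of the 643 genes were listed, 5.60% of them and 14.01% of those with a candidate. Among the 19342 genes without the letters the shares were 2.56% and 7.83%. The 5 genes with the letters shown above are among the 643, and 4 of them, all but egg-2, are among the 36. No test was made. The other motifs searched on both strands were in fewer of the summit windows. GAGAGA was in 0 of the 7 summit windows against 18.6% of candidate windows, GATAAG in 1 against 10.4%, and TATAAA in 4 against 25.4%. In promoters of 250 bases before to 50 after the start, however, TATAAA was in 6 of 9 genes, more than the 5 with TTCCCGC, and in 38.0% of all protein-coding genes.

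A list of 88 other genes of the eggshell, oocyte and early embryo, of which 87 were in the annotation under the names used, had fewer listed members in proportion, the 10 genes having been selected for theirs. In the larger set 57 of the 87 had a candidate, beside 33% of all protein-coding genes. A listed summit was found at 7 of the 57, beside 8.07% of all genes with a candidate. In the conservative set 8 of 60 with a candidate were listed, in replicate 1 6 of 69, and in replicate 2 2 of 76. The shares over all genes with a candidate were 6.72%, 3.31% and 1.85% in the same order. The median percentile of the strongest candidates of these other genes was 74.5 in the larger set. This lay between the median of all genes with a candidate and that of the 8 of the 10 genes that had one. The eggshell and permeability barrier genes had 2 listed of 13 with a candidate, the RNA regulators 3 of 26, the polarity and cell fate factors 2 of 11, and the oocyte surface, yolk and gonad signalling genes 0 of 7.

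Of the 7, perm-1, named for a permeable eggshell, most resembled the genes above. Its summit was 258 bp upstream, its signal 111.4, its rank 314 and its IDR 0.00041, and its promoter held the TTCCCGC letters, as did 10 of the 87 promoters (11.5%). The peak of egg-5, a pseudophosphatase gene of the egg-3 pathway, lay 792 bp upstream with a signal of 127.6, and that of skn-1, a maternal transcription factor gene, lay 1478 bp downstream of the TSS in a 3' UTR with a signal of 89.8. The remaining 4 summits were nearer to another gene's start than to that of the listed gene. These were the peaks given to the RNA-binding protein gene larp-1 (nearest start wip-1), the translation repressor gene ifet-1 (rps-1), the polarity gene par-2 (rab-18) and the Y-box protein gene cey-2 (F46F11.7). The gene added by the conservative set, atx-2, had its summit nearer to ecps-1.

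The genes whose ranks in the 4 lists were most like those of cpg-1 were twk-5, ttr-18 and sqd-1, among 4937 genes with a candidate in every list. The measure was the sum over the lists of the absolute difference in log10 rank. It was 0.0742 for the potassium channel gene twk-5 and for the transthyretin-related gene ttr-18, which share a peak at rank 192 in the larger set, 246 in replicate 1 and 210 in replicate 2. For sqd-1 it was 0.0792, with ranks of 199, 230 and 216. Such likeness means only that the peaks rank about equally.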

How the data were processed

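The deposited files are peak lists from 2 biological replicates of 1 group, 8 lists in all, on assembly ce11 per the authors' read-me texts. Which aligner, peak caller and IDR tool were run is not given in the sources used here. Signal is a score from the authors' peak caller, used only for ranks within a list. A second deposited score is the IDR's negative log2 multiplied by 125, with 1000 as its ceiling. The deposited ranked lists also hold the -log10 of the global IDR, capped at 5, from which every IDR here was computed. Summit positions are deposited relative to the start of each peak. The thresholded lists omit 149, 102, 81 and 154 candidates of the larger set, the conservative set, replicate 1 and replicate 2 that meet the IDR limit; none counted as listed.

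Genes and starts came from Ensembl release 115 and sequence from the reference genome of the same build, WBcel235. A summit took the first matching class of promoter (500 bp upstream to 100 bp inside a protein-coding gene's start), untranslated or coding exon sequence (5' UTR, then coding, then 3' UTR), intron, RNA gene without coding sequence, and intergenic. Candidates of different lists were taken as 1 locus within 130 bp. Repeat share is the percentage of 24-mers within 130 bp of a summit with at least 5 genomic copies. The promoter sequence of 1 member, cpg-2, is not reported here and was left out of the members' sequence counts.

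The members, lists of genes, motifs and the rule for named genes were chosen with earlier results of these data known. The rule names all 10 members, each annotated gene within 2000 bp of a listed member summit, each gene of the further lists with a listed summit in a combined set, and the 3 genes nearest in rank to cpg-1; neighbours of unlisted promoter summits were added. No hypothesis test was made, and no untagged control was analysed here. Alternatives were windows of 500 and 1000 bp, the nearest or outermost start, other IDR limits, peak overlap, lists of each replicate alone, the conservative set and promoter windows. Scripts used Python 3.11.15, numpy 2.4.6, pandas 2.3.3 and matplotlib 3.10.9, and gene assignment was tested on simulated summits.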

Additional observations from a re-analysis of the deposited data

How the results depend on the processing

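The count of 5 genes with a listed summit was 5 with windows of 500 or 1000 bp, the nearest start, the outermost start, the conservative set, an IDR of 0.05, peak overlap, and the left-out peaks added, the last an alternative chosen after seeing the data. It was 2 at the lowest and 2 at the highest without replicate 1 or without replicate 2, and 1, cpg-1, at an IDR of 0.001. The count of genes with a candidate stayed at 8 under the window and start alternatives, was 9 in the conservative set, and was 10 with either replicate alone. The 7 other genes with a listed summit became 1 within 500 bp, 3 by the nearest start, 4 at an IDR of 0.001 and 15 at an IDR of 0.05, and ran from 2 to 6 with a replicate left out. The median percentile of 93.8 was 95.6 in the conservative set and ran from 95.2 to 97.3 with a replicate left out, a spread between replicates of 1.47 (SD). Candidates differ in number between lists, so equal ranks give unequal percentiles. GCGGGAA or its complement was in 5 windows also with promoters of 250 bases, and with promoters of 500 bases, chosen after seeing the data. No paired analysis was possible because there was 1 group. The cause of these differences was not tested. Each replicate's own lists rest on 1 library, the combined lists on both, and no depth was available to weigh them.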

Other observations

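The letters GATCT were noticed beside the E2F-like letters after the sequences had been read. They occurred within the 60 bases before GCGGGAA in cpg-1, egg-1 and egg-2, that is in 3 of 5 promoters. The same held for 63 of 421 protein-coding genes (15.0%). Those 421 carry GCGGGAA on the strand of the gene within 500 bases before to 50 after the start. Only copies with at least 60 bases of that window before them were counted. GATCT was not found in those 60 bases in cbd-1 and mex-1. Since the letters were picked from these sequences, no test applies. The genes egg-1 and egg-2 are paralogs, so their promoters need not be independent.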
